A study of Mus musculus with 8 samples.

Results

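Thbs1, Thbs2, Cyr61, Ctgf, Ankrd1, Amotl2, Axl, Tead1 and Yap1 were examined in whole MC38 tumors, 9 genes of the 24421 in the count table, all of which passed the filter on low counts (14468 genes tested). They were chosen by name as matricellular genes and as genes of the YAP and TEAD pathway, with the counts and fold differences of these same photoconverted and control tumors already known. The fold differences of these 9 genes between the groups are therefore descriptions. Where a test over the whole table called some of them, the call is no support for a difference. The question of the experiment was whether the light used for photoconversion changes the tumor by itself.

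All 8 tumors grew in 9-week-old female B6 mice carrying Kaede, a fluorescent protein that violet light turns from green to red. Each mouse was injected with 250000 cells of MC38, a mouse colon adenocarcinoma line. On day 10 the 4 tumors of the photoconverted group were exposed to violet light (405 nm) for 3 min, the 4 control tumors were not exposed, and all were collected 5 h after the exposure. Kaede was present in both groups, MC38 is a single cell line, and the RNA came from all cells of the tumor together, so that fewer cells of a type and less RNA per cell cannot be told apart.

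YAP is a transcriptional coactivator without a DNA-binding domain of its own. The kinases of the Hippo pathway hold it in the cytoplasm, and stretch, cell spreading or wounding lets it enter the nucleus, where it binds TEAD transcription factors on their target genes. Cyr61 and Ctgf, also named Ccn1 and Ccn2, are secreted matricellular proteins of the CCN family and are among the most widely used readouts of YAP. Thbs1 encodes thrombospondin-1, a matricellular glycoprotein that binds CD36, CD47 and integrins and can activate latent TGF-beta. Cyr61 and Thbs1 also respond within hours to serum and to other stresses, and are controlled by factors other than YAP.

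The libraries held between 12576615 and 35844417 counts. Rn45s, the ribosomal RNA precursor, took 21.9% of the counts in photoconverted tumor 4, 35.7% in control tumor 2 and 23.2% in control tumor 4, and between 2.70% and 9.65% in the other 5. Defining epithelial markers were scarce for a carcinoma line, with between 0.0610 and 0.411 CPM of Epcam (CPM, counts scaled to the library size after TMM normalization).

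The motif bound by TEAD factors was read in the promoters, because YAP binds DNA through TEAD. Binding itself was not measured here. RefSeq promoter windows (GRCm38.p6) were matched for 6 of the 9 genes: Thbs2, Cyr61, Ankrd1, Amotl2, Axl and Yap1. The 250 bases before the start held GGAATG, on either strand (CATTCC on the other), in 5 of these 6. It was in 12.6% of all 32851 windows of that length and in 14.4% of all genes with a window. Among matched genes of related lists, it was in 2 of 13 other YAP targets and 4 of 7 YAP partners and paralogs. It was also in 5 of 16 Hippo genes, 5 of 14 SRF and actin targets and 1 of 2 thrombospondin and CCN relatives. For receptors of these proteins it was 1 of 11, for Axl ligands and sister receptors 0 of 4, and for TGF-beta genes 0 of 6. The count of 5 in 6 is a description of genes that were listed for their link to TEAD. The sites are given in the direction of each gene, with 12 bases on each side and the motif in capitals.
Cyr61, chr3:145650071-145650100, minus strand, motif from base 103 before the start: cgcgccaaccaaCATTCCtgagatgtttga
Ankrd1, chr19:36120037-36120066, minus strand, from base 210 before the start: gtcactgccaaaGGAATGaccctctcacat
Ankrd1, chr19:36119950-36119979, minus strand, from base 123 before the start: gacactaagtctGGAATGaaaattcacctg
Amotl2, chr9:102717727-102717756, plus strand, from base 65 before the start: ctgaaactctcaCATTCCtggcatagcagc
Axl, chr7:25788949-25788978, minus strand, from base 233 before the start: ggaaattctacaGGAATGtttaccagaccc
Yap1, chr9:8004720-8004749, minus strand, from base 141 before the start: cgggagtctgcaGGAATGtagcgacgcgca

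The Ankrd1 and Amotl2 sites lie inside annotated exons of the same gene in GENCODE vM21, whereas the Cyr61, Axl and Yap1 sites overlap no annotated exon. The window of Cyr61 is shown whole, since it belongs to the gene with the largest fold difference of the 9. It spans chr3:145649986-145650235 on the minus strand, and the capitals mark the TEAD motif and, from base 82 before the start, TTCNNGAA, an inverted repeat of the heat shock element.
Cyr61: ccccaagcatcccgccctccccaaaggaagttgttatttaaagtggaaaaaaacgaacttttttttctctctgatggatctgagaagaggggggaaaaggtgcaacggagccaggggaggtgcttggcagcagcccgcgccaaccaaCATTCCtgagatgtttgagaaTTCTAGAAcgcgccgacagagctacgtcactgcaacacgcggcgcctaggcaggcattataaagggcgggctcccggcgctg

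TTCNNGAA was present in 7.17% of all windows. The other arrangement, GAANNTTC, was found among the 6 genes only in Ankrd1 (GAAAATTC, sharing 1 base with the TEAD motif) and in 6.69% of all windows. The AP-1 motif TGACTCA and the CArG box of SRF, both searched on both strands, were not in any of the 6 windows, against 4.46% and 1.47% of all windows.

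Among the matricellular genes, Thbs1 and Cyr61 were higher in photoconverted tumors, Ctgf was higher on average by a smaller fold and Thbs2 was level. Thbs1 (chr2:118111876-118127133 in mm10) had 406, 513, 566 and 216 CPM in photoconverted tumors 1 to 4 and 177, 168, 169 and 212 CPM in control tumors 1 to 4. The groups did not overlap, but photoconverted tumor 4 lay next to control tumor 4 while the other 3 photoconverted tumors stood well above every control. The mean was 425 ± 154 CPM against 181 ± 20.9 CPM (SD, n = 4 each), a fold of 2.34 with a log2 fold change of 1.23 (SE 0.27). Thbs1 was 1 of the 9 genes without overlap of the groups, in a table where 1.33% of the genes tested had none in either direction and 0.684% had none with the photoconverted tumors higher, and nothing is read from this count.

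Cyr61 (chr3:145646976-145649981) showed the largest difference of the 9 genes and also the widest spread. It had 311, 194, 404 and 54.1 CPM in photoconverted tumors 1 to 4 and 38.2, 52.2, 45.6 and 82.8 CPM in control tumors 1 to 4. Photoconverted tumors 1 to 3 were above every control, whereas photoconverted tumor 4 was below control tumor 4, so that the groups overlapped. The means were 241 ± 151 CPM and 54.7 ± 19.6 CPM (SD, n = 4 each), with a log2 fold change of 2.14 (SE 0.53). Within photoconverted tumors the highest value of Cyr61 was 7.47 times the lowest, against 2.17 times in control tumors.

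Ctgf (chr10:24595442-24598683), the CCN relative of Cyr61, differed less than Cyr61. Its values were 15.2, 14.8, 19.7 and 13.5 CPM in photoconverted and 6.20, 15.0, 11.8 and 13.3 CPM in control tumors 1 to 4. The groups overlapped, with control tumor 1 alone at a low value. The log2 fold change of Ctgf was 0.46 (SE 0.26), above that of 94.7% of the genes tested. Without control tumor 1 it was 0.25 (SE 0.18), the lowest of the alternative fits. Per length of exons, the Cyr61 level was 29.1, 18.5, 29.1 and 5.70 times the Ctgf level in photoconverted tumors 1 to 4, and 8.74, 4.94, 5.47 and 8.82 times in control tumors 1 to 4. These CCN genes were thus in a different proportion in photoconverted tumors 1 to 3 than in the other 5 tumors.

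Thbs2 (chr17:14665500-14694235), a thrombospondin with a similar domain order to Thbs1, had 114, 101, 132 and 77.2 CPM in photoconverted and 102, 109.7, 129 and 74.5 CPM in control tumors 1 to 4. The groups overlapped throughout, and the lowest value of each group was in tumor 4. Its log2 fold change was 0.03 (SE 0.20). Per length, the Thbs1 level was 4.10, 5.83, 4.96 and 3.23 times the Thbs2 level in photoconverted tumors and 2.00, 1.77, 1.51 and 3.29 times in control tumors.

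**Figure D1:**
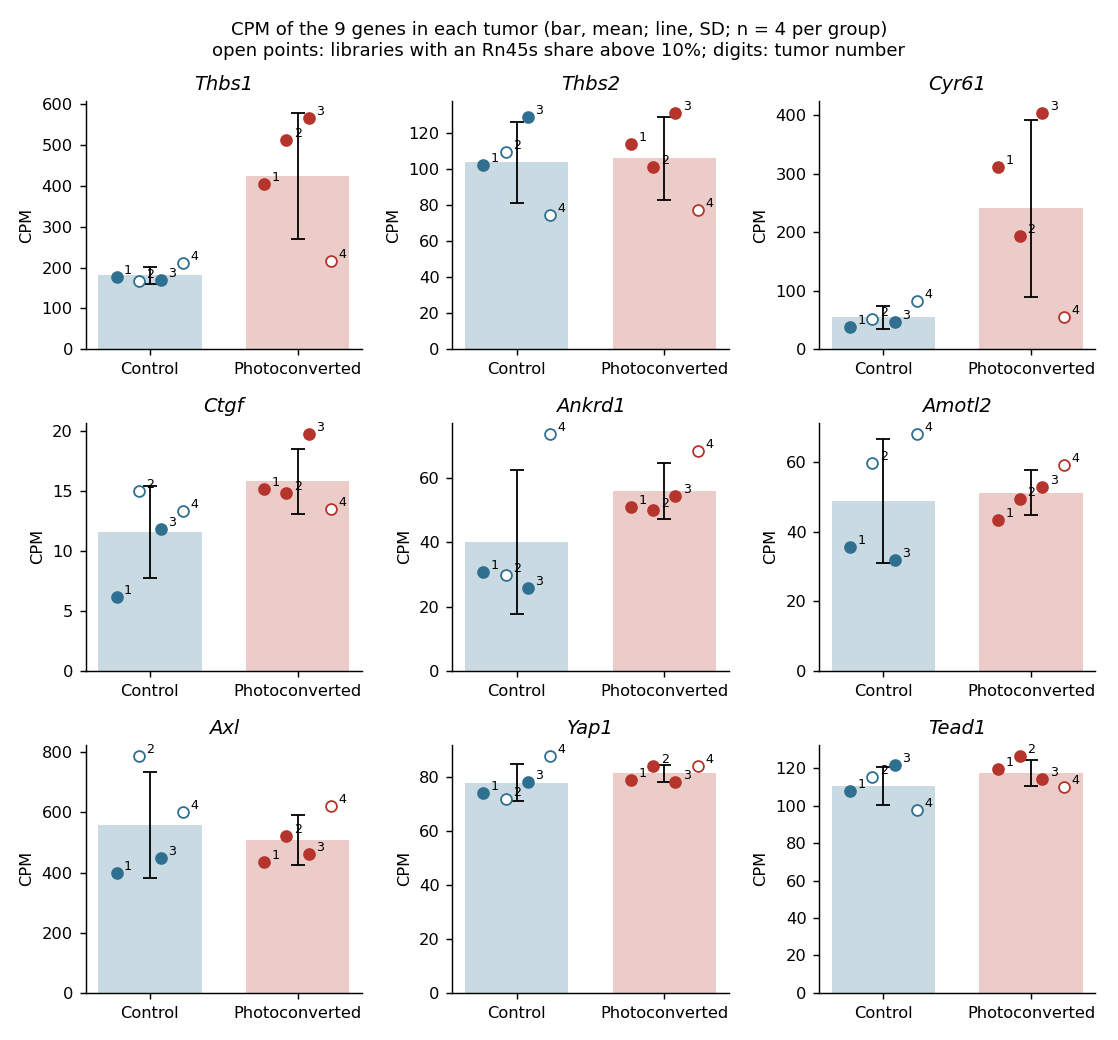
CPM of each of the 9 genes (y axis, linear from 0) in control and photoconverted tumors, with a point per tumor, bars at the mean and lines for the SD (n = 4 per group); open points are the libraries with an Rn45s share above 10%. Thbs1 and Cyr61 are high in photoconverted tumors 1 to 3 and near the controls in photoconverted tumor 4 (216 and 54.1 CPM), whereas Axl and Amotl2 are highest in the open points.

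Of the other YAP targets of the list, Ankrd1 was higher in photoconverted tumors 1 to 3 than in control tumors 1 to 3, whereas the values of Amotl2 and Axl were mixed between the groups. Ankrd1 (chr19:36111961-36120099) encodes a muscle ankyrin repeat protein that works in the sarcomere and the nucleus. It had 51.0, 50.0, 54.4 and 68.5 CPM in photoconverted and 30.9, 29.9, 25.9 and 73.5 CPM in control tumors 1 to 4. All photoconverted tumors were above control tumors 1 to 3, but control tumor 4 had the highest value of all 8, and without it the log2 fold change of 0.48 (SE 0.32) became 0.95. The summed skeletal muscle markers were lowest in the 2 tumors where Ankrd1 was highest (279.6 CPM in photoconverted tumor 4 and 253 CPM in control tumor 4). In the other 6 tumors the muscle markers summed to 706, 1112 and 2348 CPM in photoconverted tumors 1 to 3 and to 609, 617 and 711 CPM in control tumors 1 to 3, and photoconverted tumor 3 had the most of both. The part of muscle in the Ankrd1 values was not tested beyond the fit with the muscle markers as a covariate, where the log2 fold change was 0.79.

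Amotl2 (chr9:102716672-102733418), an angiomotin family scaffold that binds YAP and restrains it, had 43.5, 49.5, 53.0 and 59.1 CPM in photoconverted and 35.5, 59.9, 32.0 and 68.0 CPM in control tumors 1 to 4. Axl (chr7:25757273-25788705), a receptor tyrosine kinase for the ligand Gas6, had 434, 520.1, 461 and 622 CPM in photoconverted and 398, 786, 448 and 601 CPM in control tumors 1 to 4. In both genes the 3 highest values were those of photoconverted tumor 4 and control tumors 2 and 4, the 3 libraries with an Rn45s share above 10%. Amotl2 lay between 59.1 and 68.0 CPM in these libraries and between 32.0 and 53.0 CPM in the other 5. Axl lay between 601 and 786 CPM in them and between 398 and 520.1 CPM in the others. The log2 fold changes between the groups were 0.07 (SE 0.24) for Amotl2 and -0.13 (SE 0.23) for Axl. With the log2 Rn45s share as a covariate they were 0.21 (SE 0.13) for Amotl2 and -0.02 (SE 0.08) for Axl. Without the 3 libraries rich in Rn45s they were 0.52 (SE 0.12) for Amotl2 and 0.16 (SE 0.12) for Axl. The part of the Rn45s share in these values was not tested beyond these fits.

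The coactivator and its DNA-binding partner were nearly constant. Yap1 (chr9:7931999-8004596) had 79.1, 84.2, 78.3 and 84.1 CPM in photoconverted and 74.0, 72.0, 78.3 and 87.7 CPM in control tumors 1 to 4. Tead1 (chr7:112679318-112906807) had 119.7, 126, 114 and 110.0 CPM in photoconverted and 108, 115, 122 and 97.8 CPM in control tumors 1 to 4. The groups overlapped in both genes, with log2 fold changes of 0.06 (SE 0.10) for Yap1 and 0.09 (SE 0.11) for Tead1. The spread of Yap1 within the groups (pooled SD of log2 CPM, 0.10) was larger than that of 4.02% of the genes tested, and that of Tead1 (0.11) was larger than 6.83%. Cyr61 lay at the other end, with an SD of 0.97 that exceeded 96.2% of the genes tested. RNA levels carry no information on where the YAP protein lies in the cell.

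Same-numbered tumors of the groups deviated together from their group means on average, but only weakly in number 2 (r = 0.107). Some unlike numbers were more alike (r up to 0.482). The difference within each number is shown beside the group means and does not replace them. The photoconverted tumor had 2.29, 3.05, 3.36 and 1.02 times the Thbs1 level of the control tumor with numbers 1 to 4. For Cyr61 the ratios were 8.15, 3.71, 8.87 and 0.653. Ankrd1 followed with ratios of 1.65, 1.67, 2.10 and 0.932. In number 4 none of the 9 genes differed by more than the 0.653 of Cyr61, whereas Thbs1, Cyr61 and Ankrd1 were higher with light in numbers 1, 2 and 3.

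**Figure D2:**
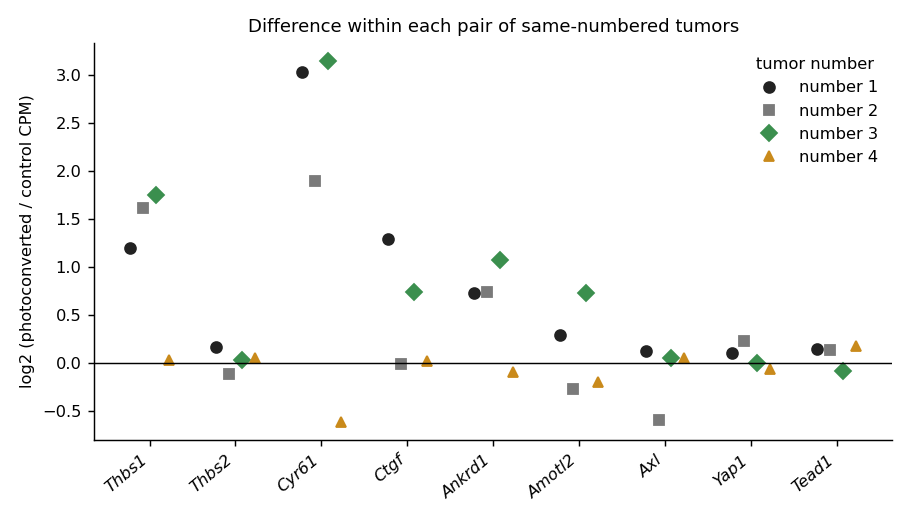
Log2 ratio of CPM between the photoconverted and the control tumor of the same number (y axis) for each of the 9 genes, with a symbol per number. Thbs1 and Cyr61 are far above 0 in numbers 1 to 3, and in number 4 Thbs1 is at 0.03 and Cyr61 at -0.61.

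Across the whole table, edgeR's quasi-likelihood test called 0 of 14468 genes (0.0%) at an adjusted p under 0.05, none of the 9 among them, while 322 (2.23%) passed an unadjusted p under 0.05, with Thbs1 and Cyr61 among them. DESeq2's Wald test called 24 genes (0.141%), with Thbs1 and Cyr61 among them, and limma called 0. Without photoconverted tumor 4, edgeR called 11 genes (0.0745%), again with Thbs1 and Cyr61. That tumor had the lowest Thbs1 and Cyr61 of its group, so leaving it out raises both differences. When the 3 libraries rich in Rn45s were left out, edgeR called 42 genes (0.275%), which held Thbs1, Cyr61 and Ankrd1. This fit kept photoconverted tumors 1 to 3 and only control tumors 1 and 3. It thus lost both tumors of number 4, where the ratios of these genes were 1.02, 0.653 and 0.932. A role of the Rn45s share cannot be told apart from the loss of those tumors. With the tumor number as a block edgeR called 0 genes, and Thbs1, Cyr61 and Ankrd1 were among the 869 (6.01%) at an unadjusted p under 0.05. Because the 9 genes were listed with this comparison in view, these counts only place them in the table and are no support for a difference in them. The median log2 fold change was 0.09 over the 9 genes and -0.01 over all genes tested, and 8 of the 9 had a value above 0, as did 46.8% of all genes tested.

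Skeletal muscle RNA also differed between the tumors, in a partly different order from Thbs1. All 12 muscle markers had a higher fitted level in photoconverted tumors (median log2 fold change 1.11), and their summed level ranged from 279.6 to 2348 CPM in photoconverted and from 253 to 711 CPM in control tumors. Photoconverted tumors 2 and 3 held the most (1112 and 2348 CPM), whereas photoconverted tumor 1 (706 CPM) lay within the range of the controls. With the muscle markers as a covariate, the log2 fold change was 0.87 for Thbs1 and 1.51 for Cyr61. With the log2 Rn45s share as a covariate it was 1.18 for Thbs1 and 2.02 for Cyr61.

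Of the other cell types that could carry these genes, those of skin differed most between the tumors. The summed markers ranged from 15.5 to 31.8 CPM in photoconverted and from 12.8 to 35.9 CPM in control tumors for platelets, which store thrombospondin-1 (Pf4 was the highest, and 3 of the 6 markers were below the filter). All 3 tested platelet markers had a log2 fold change above 0 (0.16, 0.17 and 1.59), and only Ppbp lay far from 0. One of them, Ppbp, a platelet chemokine, followed the order of Thbs1 in part, with 1.98, 1.01, 1.69 and 0.273 CPM in photoconverted tumors 1 to 4 and 0.600, 0.214, 0.391 and 0.366 CPM in control tumors 1 to 4 (log2 fold change 1.59, SE 0.54, adjusted p = 0.999 in edgeR). Summed markers ranged from 89.9 to 175 CPM and from 81.5 to 139 CPM for endothelium (6 markers, Cdh5 the highest). The ranges were 393 to 788 CPM and 288 to 786 CPM for macrophages and monocytes (6 markers, C1qa the highest). Fibroblast markers (8 markers, Col3a1 the highest) ranged from 2860 to 3923 CPM and from 2731 to 9955 CPM, the last in control tumor 2, which also had the highest Axl and the highest control value of Ctgf. Of the 8 fibroblast markers 5 had a log2 fold change above 0 and 3 below (median 0.04). The values lay between -0.88 and 0.93, the highest being that of Pdpn. Pdpn, the glycoprotein podoplanin, was high in photoconverted tumors 1 to 3 as Thbs1 and Cyr61 were, with 29.4, 27.8, 45.2 and 8.82 CPM in photoconverted tumors 1 to 4 and 18.3, 14.7, 11.7 and 13.7 CPM in control tumors 1 to 4 (log2 fold change 0.93, SE 0.40, adjusted p = 0.999 in edgeR). Epithelial markers (6 markers, Cdh1 the highest, 3 below the filter) summed to 2.80 to 6.03 CPM and 2.75 to 4.66 CPM. Skin markers (5 markers, Krt14 the highest, 3 below the filter) summed to 1.03 to 16.7 CPM and 1.06 to 2.45 CPM, with 16.0 and 16.7 CPM in photoconverted tumors 2 and 3. No marker was at 0 in all tumors. The part of each of these cell types in Thbs1 and Cyr61 was not tested.

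**Figure D3:**
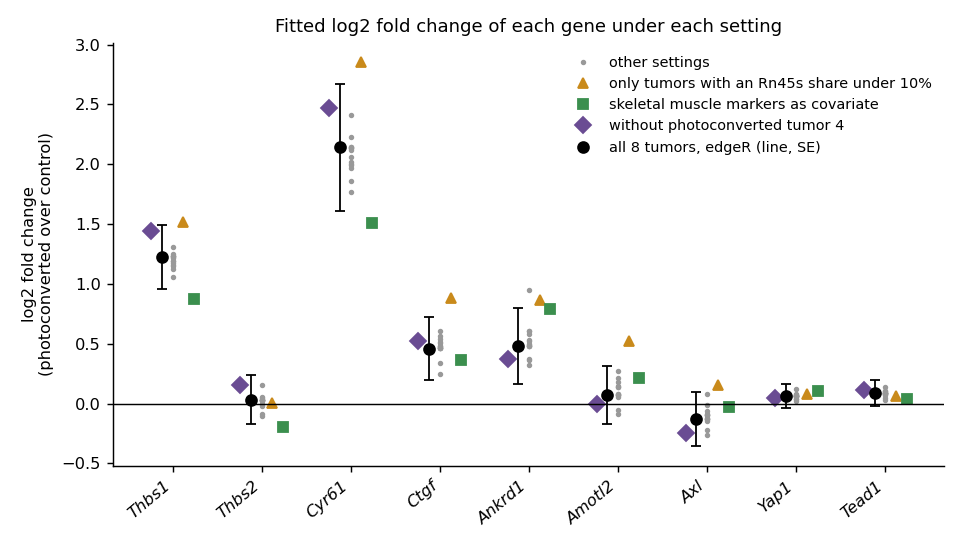
Fitted log2 fold change of photoconverted over control tumors (y axis) for each of the 9 genes, with the fit of all 8 tumors in black (line, SE) and the other fits as colored or grey points. Thbs1 stays between 0.87 and 1.52 and Cyr61 between 1.51 and 2.86, both lowest with the muscle markers as a covariate and highest without the 3 libraries rich in Rn45s, whereas Amotl2, Axl and Thbs2 lie on both sides of 0.

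Levels between genes were compared as CPM per kilobase of exons. Averaged over the 8 tumors, the order was Axl (106), Cyr61 (73.2), Thbs1 (50.0), Ankrd1 (16.6), Thbs2 (15.0), Yap1 (8.61), Tead1 (8.41), Amotl2 (7.96) and Ctgf (4.78 CPM per kilobase). Axl thus lay above 97.2% and Ctgf above 46.4% of the 14336 genes tested that have a length. Of the 8 neighbouring pairs in this order, 3 differed beyond their spread: Thbs1 over Ankrd1, Thbs2 over Yap1 and Amotl2 over Ctgf, each in 8 of 8 tumors (exact permutation test by sign flips, two-sided, p = 0.00781, which 8 tumors cannot go below, adjusted p = 0.0208 over the 8 pairs). The mean log2 differences of these pairs were 1.51 ± 0.70, 0.78 ± 0.37 and 0.76 ± 0.42 (SD, n = 8). The order and its pairs came from these same 8 tumors, with both groups pooled, so the p-values are no independent support for the order. Thbs1 enters with its photoconverted values, known when the genes were chosen. In control tumors alone Thbs1 ranged from 27.7 to 34.9 and Ankrd1 from 8.99 to 25.5 CPM per kilobase.

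The other neighbours were not told apart by this test. Axl was above Cyr61 in 6 of 8 tumors (log2 difference 1.07 ± 1.47, SD, n = 8, exact permutation p = 0.0703, adjusted p = 0.141), the exceptions being photoconverted tumors 1 and 3. Yap1 and Tead1 differed by 0.03 ± 0.17 on the log2 scale (SD, n = 8, exact permutation p = 0.664, adjusted p = 0.758). In control tumors alone the order of the means differed, with Thbs1 (29.9 ± 3.44 CPM per kilobase, SD, n = 4) before Cyr61 (27.1 ± 9.71) and Thbs2 (14.8 ± 3.23) before Ankrd1 (13.9 ± 7.77). Control tumors thus carried Thbs1 and Cyr61 at like levels per length, with ranges that overlapped.

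**Figure D4:**
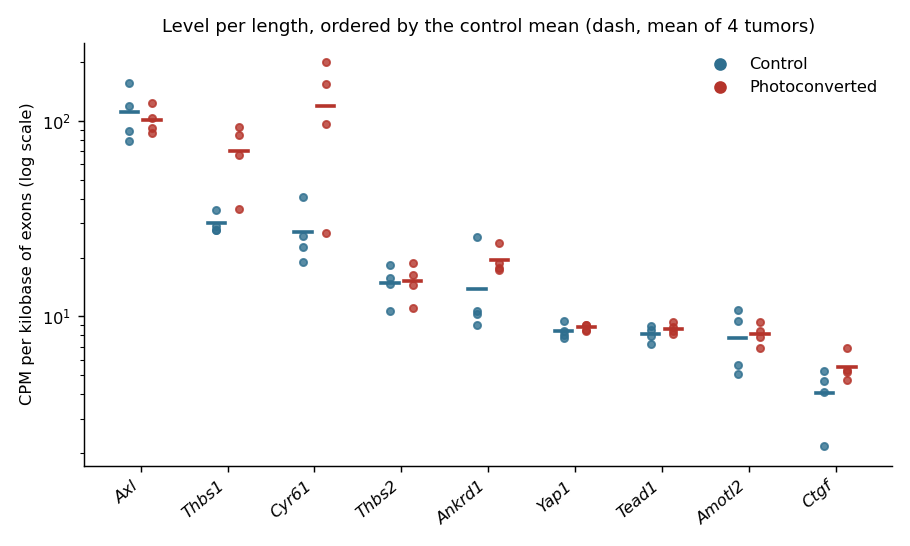
CPM per kilobase of exons (y axis, log scale) of the 9 genes in control and photoconverted tumors, ordered by the control mean, with a point per tumor and a dash at the mean of 4. Axl is the highest in control tumors (79.1 to 156 CPM per kilobase) and Ctgf the lowest on average (2.17 to 5.24).

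The rest of the pathway showed no call, and 8 lists with 97 genes in all, 95 of them tested, were counted. In edgeR none of the 95 was called at the adjusted threshold (0 genes), and an unadjusted p under 0.05 was reached by 5 (5.26%), against 2.23% of all genes tested. DESeq2's Wald test and limma also called 0 of these genes. The median log2 fold change of the 95 was 0.02, and 55 of them had a value above 0.

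None of the 19 other YAP targets had an unadjusted p under 0.05 (9 above and 10 below 0, median -0.02). The 2 with the smallest p were Nt5e, the ecto-nucleotidase CD73, with a log2 fold change of 0.45 (SE 0.26), and Lats2, a Hippo kinase that YAP induces as feedback, with 0.15 (SE 0.12), both with an adjusted p of 0.999 in edgeR. Of the 19 Hippo kinases, scaffolds and inhibitors, 1 was higher and 1 lower at an unadjusted p under 0.05, beside 1.65% and 0.574% of all genes tested in these directions. These were Frmd6, a scaffold upstream of the kinases (53.9 ± 4.43 against 43.4 ± 4.96 CPM), and Amotl1, an angiomotin that binds YAP (127 ± 17.3 against 154 ± 7.34 CPM, SD, n = 4 each), and their groups overlapped. Neither passed the adjusted threshold (adjusted p = 0.999 for both in edgeR). Of 9 tested YAP partners and paralogs, 6 lay above 0 and 3 below (median 0.10), and Vgll3 and Ywhab had the smallest p with log2 fold changes of 0.41 (SE 0.44) and 0.11 (SE 0.12).

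Among the 16 SRF and actin targets, 13 had a log2 fold change above 0 (median 0.10) and 2 had an unadjusted p under 0.05, both higher. Cnn1, a smooth muscle calponin, had between 0.547 and 0.906 CPM in photoconverted tumors and between 0 and 0.427 CPM in control tumors, where control tumor 2 had no count. Fhl2, a LIM domain cofactor, had 30.9 ± 2.17 against 25.2 ± 3.08 CPM (SD, n = 4 each). Both had an adjusted p of 0.999 in edgeR. Of the 12 TGF-beta ligands and targets, 9 lay above 0 (median 0.16), and Tgfb2, a ligand, had a log2 fold change of 0.46 (SE 0.38, adjusted p = 0.999 in edgeR).

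The receptors and relatives of the secreted proteins gave no gene with an unadjusted p under 0.05 in edgeR. Of 14 receptors of thrombospondin and CCN proteins, 6 lay above and 8 below 0 (median -0.03), with the smallest p for Itgb5, an integrin beta chain (log2 fold change -0.31, SE 0.20), and Lrp6, a Wnt coreceptor (-0.13, SE 0.09). Of 5 tested thrombospondin and CCN relatives, 4 lay above 0 (median 0.21), with the smallest p for Thbs4 (0.37, SE 0.26) and Wisp1 (0.31, SE 0.21). Of the 4 Axl ligands and sister receptors, 1 lay above 0 (median -0.12), with the smallest p for the ligand Pros1 (0.38, SE 0.41) and the receptor Tyro3 (-0.25, SE 0.23).

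**Figure D5:**
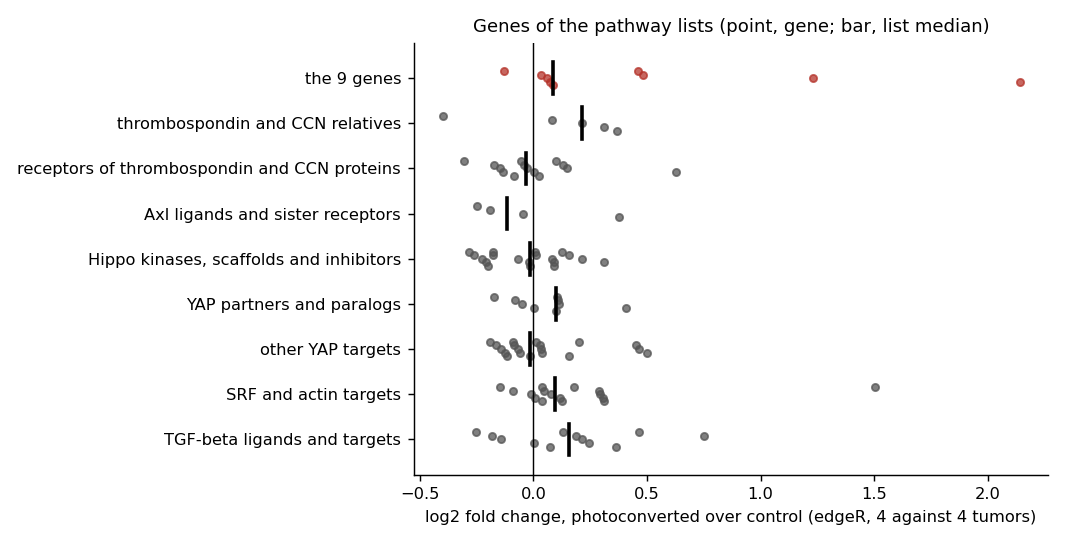
Log2 fold change of photoconverted over control tumors (x axis) for the 9 genes and for the tested genes of the 8 pathway lists, with a point per gene and a bar at the list median. The list medians lie between -0.12 and 0.21, and Cyr61 (2.14) lies beyond every gene of the lists, of which Cnn1 (1.50) is the farthest.

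The genes whose log2 CPM followed Thbs1 most closely over the 8 tumors were Fosl2, an AP-1 subunit (Pearson r = 0.992 over 8 tumors), Rrad, a small GTPase (0.983), S100a9, a neutrophil calcium-binding protein (0.974), Hdc, the enzyme that makes histamine (0.971), and Rcan1, a calcineurin inhibitor (0.971). Cyr61 was followed most closely by Hsph1, a heat shock protein of the Hsp110 family (0.994), Egr1, an immediate early transcription factor (0.983), and Hspa1b, an inducible Hsp70 (0.979). Ctgf was followed by Zswim4 (0.965), B4galt5, a galactosyltransferase (0.951), and Tnip1, an inhibitor of NF-kB signaling (0.947). These were the highest of 14467 comparisons for each gene over the same libraries. Group means were left in, so that a shared group difference adds to r, and the genes listed are given for likeness only. No YAP or TEAD gene was among them, and nothing is read from this, because so few genes were listed for each.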

How the data were processed

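RNA of 8 tumors was sequenced as a stranded total RNA library, for which the labels name a SMARTER kit and the methods of the study an TruSeq kit. The authors deposited raw read counts per gene symbol without normalization. Another table deposited by the authors holds normalized signal, equal to the counts divided by a size factor per tumor. The submitters' processing notes name Trim Galore, HISAT2, featureCounts, DESeq2 and build mm10. The annotation and the strand setting are not given in the sources used here. Each column was assigned to its tumor by the letter that the labels give, and all 16 columns were used.

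Counts were tested with edgeR 4.0.16 in R 4.3.3 (TMM, filterByExpr, glmQLFit and glmQLFTest, Benjamini-Hochberg adjustment over all genes tested, threshold 0.05). DESeq2 1.42.0 and limma 3.58.1 (log2 of the normalized values plus 1) were alternatives, and the procedures were tested on simulated data. Standard errors were derived from the fold change and the F statistic. Log2 CPM used a prior count of 2. Exon lengths and positions came from GENCODE vM21, and promoters from RefSeq GRCm38.p6. The labels call the samples separate tumors but do not say whether any shared a mouse, so p-values measure the spread between these samples only. Libraries of a group differed by at least 26.1 in chi-square per degree of freedom, well beyond sampling noise. Precision is limited for genes with few counts, and intervals from counting alone are not given because the spread between tumors is wider.

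Both groups carry numbers 1 to 4 in the labels. Deviations from the group means correlated with r between 0.107 and 0.623 within each number (mean 0.433, across genes, which are not independent). Across numbers r ranged from -0.600 to 0.482 (mean -0.134), so that some unlike numbers were more alike than some same numbers. The labels state no pairing, and the numbers were treated as pairs in an alternative fit only.

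The genes and all gene lists were chosen with earlier results of these data known. The genes named were the 9, the 2 tested genes with the smallest p of each pathway list (1 of them is not reported here), the marker with the highest mean of each marker list, and the 5 genes most like Thbs1 and 3 each most like Cyr61 and Ctgf. Epcam, chosen to check the cell line, Ppbp, Pdpn and the paralogs and overlapping genes at the end were named after their values were seen.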

Additional observations from a re-analysis of the deposited data

Results flagged for a closer look

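Ankrd1 in control tumor 4 stood apart from its group, at 73.5 CPM against 30.9 CPM in the nearest control tumor. Amotl1 in photoconverted tumor 4 also stood apart, at 152 CPM against 121 CPM in the nearest photoconverted tumor and at the level of the control tumors. Of 64 groups of 4 tumors examined in this way, 2 held such a sample where chance gives 3.2.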

How the results depend on the processing

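The count of 0 genes called in edgeR became 24 with DESeq2's Wald test, 42 without the 3 libraries rich in Rn45s, and 0 to 11 with each tumor left out in turn, the 11 without photoconverted tumor 4. The median log2 fold change of the 9 genes (0.09) became 0.52 in the 5 tumors with a low Rn45s share. These were photoconverted tumors 1 to 3 and control tumors 1 and 3. With each tumor left out the median was 0.076 to 0.28, the last without control tumor 4. The paired fit, a replicate block on the tumor number, called 0 genes, with 869 at an unadjusted p under 0.05, and gave a median of 0.14 over the 9 genes; it changed no other call. The count of 0 calls in the pathway lists and of 3 neighbouring pairs in the order of levels was the same under each alternative run. The order itself changed without photoconverted tumor 4 and without control tumor 4. There Thbs2 came before Ankrd1, so that not all of the named pairs were neighbours. The order could not be tested in the 5 tumors, where no p under 0.0625 is possible. Over 17 alternatives the fold change stayed above 0 for Thbs1, Cyr61, Ctgf, Ankrd1, Tead1 and Yap1, and in 14 for Amotl2, 12 for Thbs2 and 2 for Axl. Fold changes of genes with few counts, such as Cnn1, are limited by depth. The cause of these changes was not tested.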

Other observations

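The paralogs of Yap1 and Tead1, which the rule for naming genes did not pick, were measured at levels that did not separate the groups. Wwtr1, which encodes the YAP paralog TAZ, stood at 78.3 ± 13.6 CPM with light and 78.0 ± 14.0 CPM without. Tead2 had 86.5 ± 17.3 and 97.8 ± 24.9 CPM, Tead4 had 19.8 ± 1.25 and 18.4 ± 3.89 CPM, and Tead3 had 8.31 ± 0.66 and 8.61 ± 0.92 CPM (SD, n = 4 each). Gas6, the ligand of Axl, had 43.6 ± 24.9 and 45.0 ± 18.2 CPM. Srf, the factor that shares targets such as Cyr61 with YAP, had 63.3 ± 14.1 and 70.2 ± 25.5 CPM.

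Exons of Thbs1, Ctgf and Yap1 overlap those of genes on the opposite strand in GENCODE vM21 (Gm29233, Gm15270 and Gm20416), none of which has a row in the count table. Because the strand setting of the counting is not given in the sources used here, reads of these partners cannot be told apart from those of the 3 genes. The overlapping exon stretches span at most 110, 347 and 116 bases.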
